A study of Mus musculus with 45 samples.

Results

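Pcdh8 and Pcdh17, both on chromosome 14, were followed in the epithelium of the mouse colon through RNA sequencing (RNA-seq), amplicon bisulfite sequencing (BSP-seq) and a list of differentially methylated regions (DMRs). The genes were 2 of 24918 in the count table. The CpGs were all those of the amplicon table on chromosome 14, which were 39 of 233 in 2 of 23 amplicons and lay in or upstream of Pcdh8, and 1 of 8199 listed DMRs lay within 100 kb of either gene. Pcdh17 was chosen by its higher expression in obese than in control mice, so its levels are given as a description, with no test. The amplicons and Pcdh8 were taken by position, but with earlier results of these data known, so their tests are no independent support. All mice were male C57BL/6, aged 6 weeks when the diets began, and were studied after 20 weeks. Control mice (LF) ate a 10% fat diet throughout and obese mice (HF) a 60% fat diet throughout. Formerly obese mice (HFLF) received high-fat food for 15 weeks and low-fat food for the last 5 weeks. RNA-seq and BSP-seq each gave 5 samples per group. The labels give both assays the numbers 1 to 5 in each group, without saying that a number is the same mouse. The epithelium was released from the whole colon with EDTA and sequenced in bulk.

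Protocadherins are transmembrane proteins of the cadherin superfamily that mediate contacts between cells. Unlike classical cadherins such as E-cadherin, they do not anchor to the actin cytoskeleton through beta-catenin. Pcdh8 (also called arcadlin or paraxial protocadherin) and Pcdh17 belong to the non-clustered delta group, whose genes lie singly in the genome, and both are best known from the nervous system. In neurons Pcdh8 drives endocytosis of N-cadherin through the kinase TAO2 and p38, and Pcdh17 recruits the WAVE complex, a regulator of actin branching. The promoters of both genes are known to gain methylation in several carcinomas. Methylation of a CpG is the share of DNA copies whose cytosine at that site carries a methyl group.

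Pcdh8 spans 79766772 to 79771312 on the minus strand (mm10) and Pcdh17 84443563 to 84537060 on the plus strand, 4672 kb away. The exon amplicon held 24 CpGs from 79769369 to 79769607, all inside the coding part of the first exon of Pcdh8 (GENCODE vM21, exon 79768497 to 79771312), 1705 to 1943 bp downstream of its start. The upstream amplicon held 15 CpGs from 79822681 to 79823220 in intergenic DNA, 51.4 to 51.9 kb before the start. The genomic sequences are shown because they hold every CpG measured here except the last upstream one, at 79823220. They are RefSeq GRCm38 (the mm10 sequence) on the plus strand, 5′ to 3′, with each measured CpG in capitals. The first is chr14:79769369-79769608, the second chr14:79822681-79822736, which holds the CpG that differed most clearly between diets as its last CG, and the third chr14:79822897-79823110.
Exon amplicon: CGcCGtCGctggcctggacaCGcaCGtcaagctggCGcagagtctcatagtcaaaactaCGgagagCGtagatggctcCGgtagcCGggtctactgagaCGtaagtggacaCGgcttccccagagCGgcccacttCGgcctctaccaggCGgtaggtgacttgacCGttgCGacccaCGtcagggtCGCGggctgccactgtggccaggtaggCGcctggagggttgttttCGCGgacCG
Upstream amplicon, first 4 CpGs: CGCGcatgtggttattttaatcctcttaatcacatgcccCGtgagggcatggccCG
Upstream amplicon, next 10 CpGs: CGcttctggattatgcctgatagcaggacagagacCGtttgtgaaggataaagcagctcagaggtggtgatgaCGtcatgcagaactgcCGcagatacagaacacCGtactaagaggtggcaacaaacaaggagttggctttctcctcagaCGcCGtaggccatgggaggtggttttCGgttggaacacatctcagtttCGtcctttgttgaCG

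The exon stretch had a GC content of 64.2% and 0.98 times the CpGs its base composition would give by chance placement. For the 56-base stretch with the first 4 upstream CpGs these were 53.6% and 1.00, and for the 325 bases with the other 11 they were 49.8% and 0.57. Neither amplicon covered the promoter of either gene. In the 250 bases before the start, Pcdh8 had 11 CpGs and Pcdh17 had 21, against a median of 6 over 27025 RefSeq promoters of that length. At least as many were found in 36% of these promoters for Pcdh8 and in 16.1% for Pcdh17.

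Counts summed to between 15230391 and 22762095 per RNA-seq library, and 12961 genes passed the filter on low counts. Levels are counts-per-million (CPM) values after TMM scaling between libraries. The epithelial origin of the samples was visible in the markers, with Muc2 of goblet cells at a mean of 2713 CPM and Car1 of colonocytes at 5288 CPM. The 6 fibroblast markers summed to 2.34 to 10.9 CPM per library in LF, 6.78 to 17.4 CPM in HF and 6.02 to 30.7 CPM in HFLF. The 6 endothelial markers summed to between 8.68 and 16.0 CPM, the 10 neuron and glia markers to between 4.25 and 8.06 CPM with Sox10 at 0, and the 6 smooth muscle markers to at most 2.70 CPM. The 9 immune markers in the table summed to 21.5 to 38.2 CPM in LF, 28.9 to 56.1 CPM in HF and 24.7 to 50.5 CPM in HFLF. None of the 15 markers of these 5 lists that could be tested was called by edgeR in any of the 3 comparisons, and no smooth muscle marker passed the filter. The 7 colonocyte markers summed to 8537 to 14408 CPM in LF, 9078 to 14140 CPM in HF and 11878 to 17454 CPM in HFLF. Of these, edgeR called 1 in HF against LF (Slc20a1, lower) and 3 in HFLF against LF (Car4, Krt20 and Slc26a3, higher). It called 3 in HFLF against HF (Car4, Slc20a1 and Slc26a3, higher). The 6 tuft cell markers in the table summed to 41.3 to 61.8 CPM in LF, 49.6 to 58.7 CPM in HF and 57.4 to 76.3 CPM in HFLF. Of the 5 that were tested, 0, 3 and 1 were called in these comparisons, all higher in HFLF. Of 9 goblet, 14 enteroendocrine and 6 stem cell markers, 1 goblet marker was called in HF against LF (Spink4, higher) and 1 enteroendocrine marker in HFLF against HF (Pyy, lower). Over all tested genes, 1.58% were called in HF against LF, 3.72% in HFLF against LF and 2.65% in HFLF against HF.

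Pcdh8 gave no read in any sample. Its count was 0 in 15 of 15 libraries, 5 of 5 in each group, so no fold change could be fitted. A count of 0 in a library taken alone allows up to 3 counts, which is 0.134 to 0.196 CPM at these depths and covers counting error only. The 15 libraries at 0 together allow only a lower level than this, which was not computed. In all, 6512 genes (26.1%) of the table were at 0 in every library. A difference between diets in Pcdh8 was therefore not detectable at this depth.

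Pcdh17 was expressed in all 15 libraries, with 949 to 1826 reads each and a mean of 84.3 CPM. Of the tested genes, 22.8% had a higher mean CPM. In LF the libraries were at 79.0, 78.6, 76.8, 72.6 and 61.0 CPM. In HF they were at 98.1, 95.4, 106.8, 101.8 and 99.3 CPM. In HFLF they were at 87.1, 78.1, 81.3, 78.4 and 70.8 CPM. Every HF library lay above every LF library and above every HFLF library. Of the HFLF libraries, 2 were above the highest LF library and 3 were inside the LF range. In bulk tissue, a change in the number of cells that express a gene and a change in its RNA per cell cannot be told apart.

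**Figure D1:**
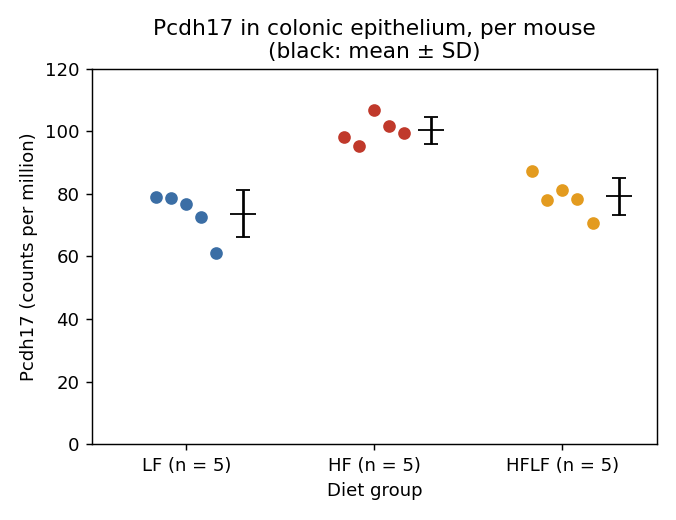
Pcdh17 level in CPM (vertical axis, from 0) in each of 5 mice per diet group (points), with the group mean and SD in black. The HF libraries, from 95.4 to 106.8, all sit above the LF libraries (61.0 to 79.0) and the HFLF libraries (70.8 to 87.1).

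The means were 73.6 ± 7.47 CPM in LF, 100.3 ± 4.31 CPM in HF and 79.1 ± 5.91 CPM in HFLF (SD, n = 5 each). The coefficient of variation was 10.1%, 4.29% and 7.47%, in that order. On the log2 scale Pcdh17 was 0.45 higher in HF than in LF (SE 0.07), or 36.2%. In HFLF it was 0.10 higher than in LF (SE 0.07), or 7.52%, and 0.34 lower than in HF (log2 fold change -0.34, SE 0.07). The spread within groups was 0.115 on the log2 CPM scale, and 43.4% of tested genes had a smaller one. The rule that chose Pcdh17 used the HF and LF libraries, and each other comparison shares one of these groups, so nothing is read from these folds beyond their size. Without LF replicate 5, the lowest library, the HFLF difference from LF was 0.05 in place of 0.10. Beside these values, the summed level of every marker list overlapped between HF and LF, and the part of cell composition in the Pcdh17 difference was not tested.

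To compare genes with each other, edgeR's quasi-likelihood test was fitted to all 15 libraries. A call needed a change of more than 1.2-fold, p under 0.01 and an adjusted p (Benjamini-Hochberg) under 0.25. This called 1.58% of tested genes in HF against LF (0.718% higher and 0.864% lower). It called 3.72% in HFLF against LF (1.85% higher and 1.87% lower) and 2.65% in HFLF against HF (1.23% higher and 1.42% lower). Genes whose groups did not overlap, with the first group higher, were 1.21% of those tested in HF against LF, and those with the first group lower were 1.89% in HFLF against HF. Pcdh17 was inside these counts in HF against LF and in HFLF against HF by the choice of the gene.

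All 12 non-clustered protocadherins were in the table, and Pcdh8, Pcdh11x and Pcdh15 were at 0 in every library. Pcdh10, Pcdh12, Pcdh9, Pcdh7 and Pcdh19 had 1 to 30 reads over all 15 libraries together, too few to be tested. That left 4 tested members. Per kb of annotated exon, Pcdh1 stood highest at a mean of 18.7 CPM per kb. It was followed by Pcdh17 at 6.49, Pcdh18 at 0.506 and Pcdh20 at 0.0961 CPM per kb. Pcdh17 was thus the second most abundant of the family in this epithelium per length.

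**Figure D2:**
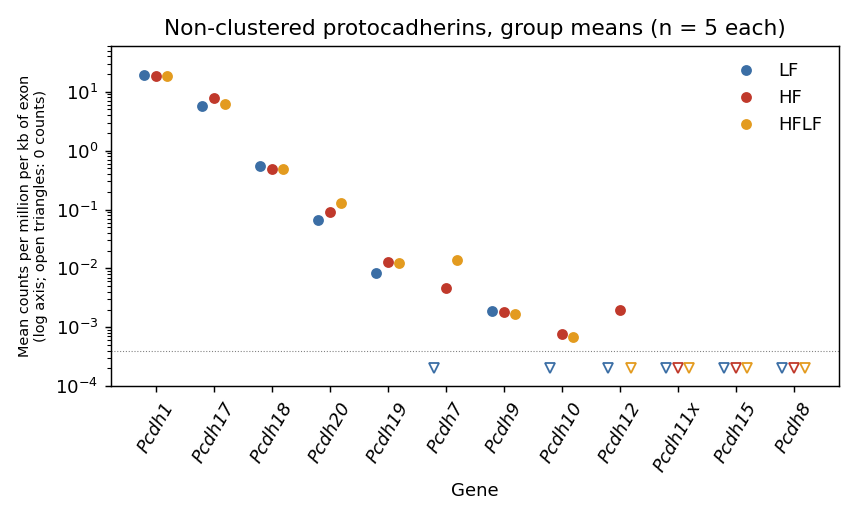
Mean level of the 12 non-clustered protocadherins in CPM per kb of annotated exon (log axis), by diet group (n = 5 mice each). Open triangles below the dotted line mark groups in which no read was counted, and Pcdh8 has such a triangle in all 3 groups while Pcdh17 stands second behind Pcdh1.

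Pcdh1, a protocadherin of airway and other epithelia, was at 168.1 ± 10.2 CPM in LF, 160.5 ± 3.37 CPM in HF and 165.4 ± 10.1 CPM in HFLF (SD, n = 5 each). Its log2 fold change was -0.07 in HF against LF (edgeR adjusted p = 0.661). Pcdh18 was at 2.91 ± 0.41 CPM in LF, 2.60 ± 0.64 CPM in HF and 2.64 ± 0.54 CPM in HFLF, and did not pass the rule in any comparison. Pcdh20 was the 1 member apart from Pcdh17 to be called, in HFLF against LF only. The counts behind it were 4 to 8 reads per LF library, 5 to 11 per HF library and 7 to 17 per HFLF library. The level was 0.365 ± 0.087 CPM in LF, 0.502 ± 0.150 CPM in HF and 0.717 ± 0.221 CPM in HFLF, with overlapping groups. Pcdh20 rose in HFLF against LF by a log2 fold change of 0.95 (SE 0.30, edgeR adjusted p = 0.113). Whether its HF and HFLF values differ was tested too, and that difference (log2 0.50, adjusted p = 0.472) did not pass. Of all tested genes, 1.85% were called higher in HFLF against LF. The Pcdh20 call was absent with DESeq2, and it ended without any one of LF replicates 2, 3, 4 and 5 or HFLF replicates 1, 2 and 5.

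The 5 other lists named proteins that work beside protocadherins, 39 tested genes in all. In the edgeR fit of all 15 libraries none of them was called in any comparison, and DESeq2 also called none. At an unadjusted p under 0.05 there were 2 in HF against LF, 10 in HFLF against LF and 5 in HFLF against HF, against 10.9%, 16.7% and 13.4% of all tested genes. Of the WAVE complex and its regulators, the actin machinery that Pcdh17 recruits in neurons, 12 of 15 were tested. Their median log2 fold change was 0.02 in HF against LF and 0.04 in HFLF against LF, with 0.00 over all tested genes in both. The 2 most abundant were the GTPase gene Rac1, at 542.1 ± 22.1 CPM in LF and 544.9 ± 21.4 CPM in HF, and Vasp, an actin polymerase, at 523.0 ± 23.3 and 532.6 ± 24.9 CPM.

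Of the kinase genes listed for the N-cadherin endocytosis that Pcdh8 drives, relatives of TAO2 included, all 6 were tested. Their median log2 fold change was 0.02 in HF against LF. The most abundant were 2 TAO kinase genes other than the gene of TAO2. Taok3 was at 125.8 ± 2.18 CPM in LF, 125.2 ± 4.42 CPM in HF and 127.6 ± 6.32 CPM in HFLF, and Taok1 at 118.4 ± 3.95, 125.5 ± 5.94 and 130.3 ± 6.75 CPM. For Taok1 in HFLF against LF the log2 difference was 0.14 (edgeR adjusted p = 0.115), under the fold cutoff. The kinase genes were thus expressed in libraries in which no Pcdh8 read was counted.

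Cdhr5 and Cdhr2, protocadherins of the brush border that link neighbouring microvilli, were far more abundant than Pcdh17. In the same list, Cdhr1 had a mean of only 13.8 CPM and Cdhr3 had 3 reads in all. Cdhr5 was at 911.6 ± 46.3 CPM in LF, 1012 ± 71.3 CPM in HF and 1077 ± 70.9 CPM in HFLF, with a mean of 365.2 CPM per kb. Cdhr2 was at 750.2 ± 59.0, 780.8 ± 49.8 and 898.0 ± 43.6 CPM. In HFLF against LF both had an adjusted p under 0.05 (edgeR, 0.0304 for Cdhr2 and 0.0381 for Cdhr5) and log2 differences of 0.26 and 0.24, just under the fold cutoff. Cdhr2 passed that cutoff and was called without LF replicate 2, LF replicate 4, HFLF replicate 2 or HFLF replicate 4, and Cdhr5 without LF replicate 4 or HFLF replicate 2. Among classical and other cadherins, 12 of 40 genes in the table were tested, with a median log2 fold change of 0.05 in HF against LF. In HFLF against LF, 6 of them were higher and 6 lower. There Dsc2 and Dsg2 had an adjusted p under 0.05 (edgeR, 0.0268 and 0.0322), as had 282 of 12961 tested genes. Their log2 differences of 0.21 and 0.20 were under the fold cutoff. In HF against LF the log2 difference of Dsc2 was 0.20 (edgeR adjusted p = 0.101) and that of Dsg2 0.02 (0.945). Cdh1, which encodes E-cadherin, was at 1994 ± 99.9 CPM in LF and 1932 ± 71.4 CPM in HF, and Cdh17, the liver-intestine cadherin, at 1143 ± 89.4 and 1181 ± 68.0 CPM. Of catenins and adherens junction genes, 6 of 9 were tested, led by Ctnnb1 (beta-catenin) at 1240 ± 43.8 CPM in LF and 1281 ± 43.5 CPM in HF and Ctnnd1 (p120-catenin) at 803.6 ± 37.1 and 811.6 ± 25.5 CPM.

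The genes around both members were also listed. Within 500 kb of Pcdh8 lay 13 other genes of the table, and 8 were tested, namely Elf1, Kbtbd7, Mtrf1, Naa16, Rgcc, Sugt1, Wbp4 and Zbtbd6. None was called in any comparison by edgeR or DESeq2. The unadjusted edgeR p was under 0.05 for 2 in HF against LF, 0 in HFLF against LF and 1 in HFLF against HF. Over all tested genes the shares were 10.9%, 16.7% and 13.4%, in that order. The most abundant was Elf1, an ETS transcription factor gene 184.3 kb away, at a mean of 164.4 CPM and a log2 fold change of 0.10 in HF against LF (edgeR adjusted p = 0.440). Lect1, Gm10845 and Olfm4 had 10, 4 and 63 reads in total, and 4930452G13Rik and Mir759 had none. The 1 annotated neighbour of Pcdh17, 9630013A20Rik, lies inside it and was also at 0. The strand setting of the counting is not given in the sources used here.

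Across the 15 libraries, the tested genes with a mean of at least 50 counts whose log2 CPM followed Pcdh17 most closely were Cdkn1c (Pearson r = 0.88), Itgav (0.84), Creb3l3 (0.84), Itgb6 (0.83) and Fhl2 (0.83). They were the 5 highest of 11035 candidates, and 9 candidates had r over 0.8. These correlations are descriptions over 15 libraries that share the 3 diet groups. Of deviations from the group means, r was 0.69 for Cdkn1c, 0.77 for Itgav, 0.51 for Creb3l3, 0.60 for Itgb6 and 0.14 for Fhl2. Cdkn1c, which encodes a cell cycle inhibitor, was at 3.88 ± 0.28 CPM in LF, 4.93 ± 0.25 CPM in HF and 4.06 ± 0.56 CPM in HFLF. Itgav, the integrin alpha V gene, was at 34.7 ± 2.35, 43.5 ± 3.11 and 40.2 ± 4.57 CPM, and Itgb6, the integrin beta 6 gene, at 31.6 ± 2.74, 36.5 ± 1.44 and 32.4 ± 2.12 CPM. Creb3l3, a transcription factor gene of liver and intestine, was at 4.02 ± 0.67, 12.3 ± 2.12 and 6.80 ± 5.05 CPM, and Fhl2, a LIM domain gene, at 11.3 ± 0.58, 14.6 ± 0.42 and 11.8 ± 0.89 CPM.

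Methylation differed far more along the DNA than between diets. In the exon amplicon the mean of a CpG over the 15 samples ran from 16.3% at 79769546 to 77.3% at 79769435, with a median of 28.9%, and 7 of 24 CpGs were over 50%. In the upstream amplicon all 15 CpGs were over 50%, from 58.2% at 79822932 to 94.3% at 79823051, with a median of 81.1%. The median SD between samples of one group was 2.80 percentage points per exon CpG and 1.11 per upstream CpG. CpGs of an amplicon lie close together on the DNA and can share reads, so they are not independent. Over 15 samples the median Pearson r between 2 CpGs was 0.50 in the exon amplicon and 0.58 in the upstream amplicon. The table holds no read depth, so the counting error of a value is unknown.

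**Figure D3:**
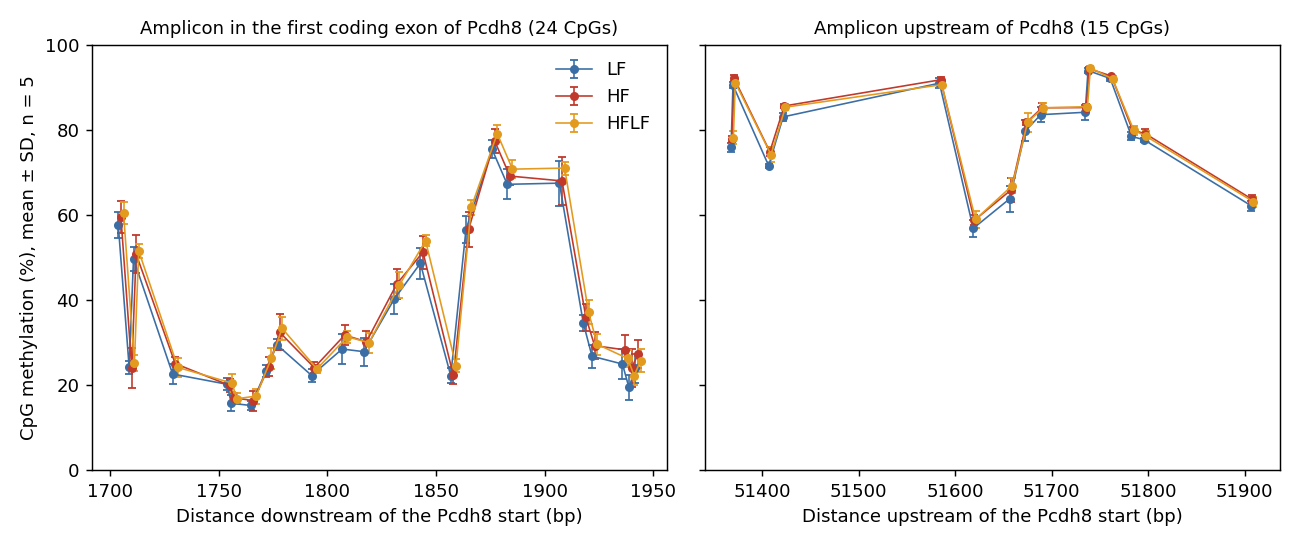
Methylation of the 39 CpGs in percent (mean and SD of 5 mice per diet group) against distance from the Pcdh8 start in bp, downstream for the exon amplicon (left) and upstream for the other (right). The 3 diet curves run close together, from 16.3% to 77.3% in the exon and from 58.2% to 94.3% upstream.

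Averaged over its CpGs, the exon amplicon was at 35.5%, 37.2%, 35.4%, 34.9% and 32.8% in the LF samples, at 36.0%, 41.7%, 37.0%, 35.6% and 34.8% in HF, and at 37.7%, 37.8%, 38.6%, 38.3% and 36.4% in HFLF. HF replicate 2 was the highest of all 15. Of the HFLF samples, 4 of 5 lay above every LF sample. The means were 35.2% ± 1.61 in LF, 37.0% ± 2.72 in HF and 37.8% ± 0.82 in HFLF (SD, n = 5 each). HFLF exceeded LF by 2.60 percentage points (95% interval 0.05 to 5.15 from limma over all amplicons). The exact two-sided permutation test gave p = 0.0159, and p = 0.365 after Benjamini-Hochberg adjustment over 23 amplicons and 3 comparisons (69 tests), which does not pass. With 5 against 5 samples the smallest p it allows is 0.00794. After adjustment over 69 tests, a single amplicon could therefore not pass alone even with fully separated groups. Not passing this test thus says little about a difference. HF exceeded LF by 1.86 points (interval -0.69 to 4.41, exact permutation p = 0.246, adjusted p = 0.808) and by 0.70 points without HF replicate 2. HFLF and HF differed by 0.74 points (interval -1.81 to 3.29, exact permutation p = 0.635, adjusted p = 0.940).

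The upstream amplicon was at 79.0%, 78.9%, 77.4%, 79.3% and 80.1% in LF, at 79.5%, 80.5%, 81.0%, 80.8% and 80.9% in HF, and at 80.9%, 79.95%, 81.3%, 80.5% and 79.1% in HFLF. In HF 4 of 5 samples and in HFLF 3 of 5 lay above every LF sample. The means were 78.9% ± 0.99, 80.5% ± 0.64 and 80.4% ± 0.87 (SD, n = 5 each). HF exceeded LF by 1.61 points (interval 0.54 to 2.68, exact permutation p = 0.0159, adjusted p = 0.365) and HFLF exceeded LF by 1.41 points (interval 0.34 to 2.48, exact permutation p = 0.0556, adjusted p = 0.479). HFLF was 0.20 points under HF (difference -0.20, interval -1.27 to 0.87, exact permutation p = 0.714, adjusted p = 0.940). Of the 23 amplicon means, 0% passed an adjusted p under 0.05 in each of the 3 comparisons, a threshold that no single amplicon could reach alone in the permutation test. The unadjusted p was under 0.05 for 4.35% of them in HF against LF, 17.4% in HFLF against LF and 4.35% in HFLF against HF, and limma on the same means also called none of these 2 amplicons. Over all 233 CpGs the sample means ran from 62.3% to 64.6%.

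**Figure D4:**
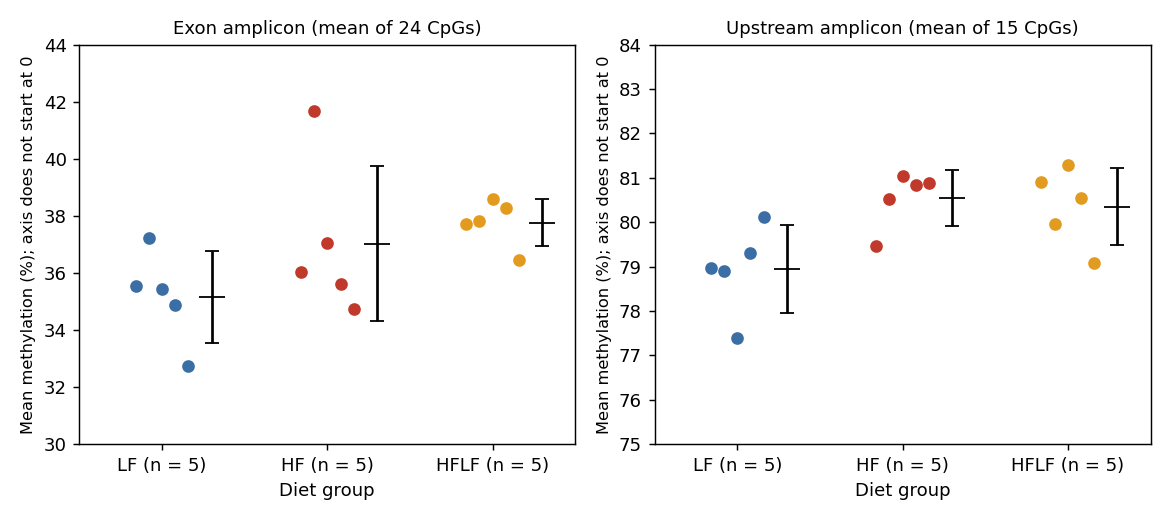
Mean methylation in percent of the exon amplicon (left, 24 CpGs) and the upstream amplicon (right, 15 CpGs) in each mouse (points), with group mean and SD in black and vertical axes that do not start at 0. In the exon amplicon HF replicate 2 stands highest at 41.7%, and in the upstream amplicon the lowest LF sample is at 77.4% and the highest HFLF sample at 81.3%.

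CpG by CpG, the direction was mostly upward from LF. In the upstream amplicon 15 of 15 CpGs were higher in HF than in LF, and 13 of 15 were higher in HFLF than in LF. In the exon amplicon the counts were 22 of 24 and 24 of 24. Over all 233 CpGs, these included, 135 were higher in HF and 137 in HFLF. CpGs of an amplicon are not independent and come from the same samples, so such counts are a description only. The median difference from LF in HF was 1.94 points over the exon CpGs and 1.58 over the upstream CpGs, beside 0.14 over all 233. In HFLF it was 2.69 and 1.42 points, beside 0.26.

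A CpG was called at an adjusted p under 0.05 in a limma fit with trend over all 233 CpGs. Of the 39, 1 was called in HF against LF and the same one in HFLF against LF, where 0.429% of all CpGs were called in each, so this CpG was the whole count. It lies at chromosome 14, 79822735, the last CG of the 56-base upstream stretch shown above, and it had the smallest p of all 233 CpGs in both comparisons with LF. An earlier look at these data had already singled it out, so the test is no independent support. In LF it was at 83.4%, 81.6%, 83.0%, 83.5% and 83.7%. In HF it was at 85.2%, 86.1%, 86.0%, 85.0% and 85.6%, and in HFLF at 85.5%, 85.4%, 85.6%, 85.8% and 84.2%. Every HF and every HFLF sample was above every LF sample, while HF and HFLF overlapped.

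The means at 79822735 were 83.0% ± 0.85 in LF, 85.6% ± 0.49 in HF and 85.3% ± 0.63 in HFLF (SD, n = 5 each). It rose by 2.56 points in HF (SE 0.47, limma adjusted p = 0.0129) and by 2.28 points in HFLF (SE 0.47, limma adjusted p = 0.0418). Over 22 alternatives the adjusted p in HF ran from 0.00781 to 0.0552 and the call stood in 18. In HFLF it ran from 0.0146 to 0.166 and the call stood in 3. The difference between HFLF and HF was not called. The size was under 3 percentage points in both comparisons.

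The neighbouring CpG at 79822720, 15 bases away, was also free of overlap between LF and HF. It was at 71.7%, 71.3%, 70.8%, 72.05% and 71.9% in LF, at 74.0%, 73.6%, 75.4%, 75.5% and 75.7% in HF, and at 76.3%, 73.6%, 75.3%, 73.6% and 72.0% in HFLF. HFLF replicate 5 fell inside the LF range and the other 4 lay above it. The difference was 3.29 points in HF (SE 0.80, limma adjusted p = 0.104) and 2.61 points in HFLF (SE 0.80, limma adjusted p = 0.179), which did not pass. These 2 CpGs made up the 2 of 39 whose HF and LF samples did not overlap, against 1.72% of all CpGs, and 79822735 the 1 of 39 in HFLF against LF, against 1.29%. The mean of the 4 CpGs in this stretch was 80.2% in LF, 82.6% in HF and 82.2% in HFLF, and that of the other 11 was 78.5%, 79.8% and 79.7%.

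In the exon amplicon no CpG was called in any comparison with limma, and the unadjusted p was under 0.05 for 1 CpG in HF against LF, 4 in HFLF against LF and 1 in HFLF against HF. Upstream the counts were 6, 4 and 2. The share of all 233 CpGs was 10.3% in HF against LF, 8.58% in HFLF against LF and 5.15% in HFLF against HF. For HF against LF the smallest p was at 79769372, near the far end of the amplicon, at 19.5% ± 2.85 in LF and 24.0% ± 4.44 in HF (SD, n = 5 each). The difference was 4.58 points (SE 2.06, limma adjusted p = 0.417), and HF replicate 2 was the highest there at 31.4%. The next, 79769504, was at 28.5% ± 3.61 and 31.8% ± 2.26. For HFLF against LF the smallest were 79769468, 48.6% ± 3.72 in LF and 53.9% ± 1.31 in HFLF, and 79769447, 56.5% ± 3.23 and 61.7% ± 1.75. Both had a limma adjusted p of 0.306, with differences of 5.29 and 5.22 points. At 79769447 HF stayed at 56.6% ± 4.14, and HFLF exceeded HF by 5.17 points (SE 1.90, limma adjusted p = 0.712).

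**Figure D5:**
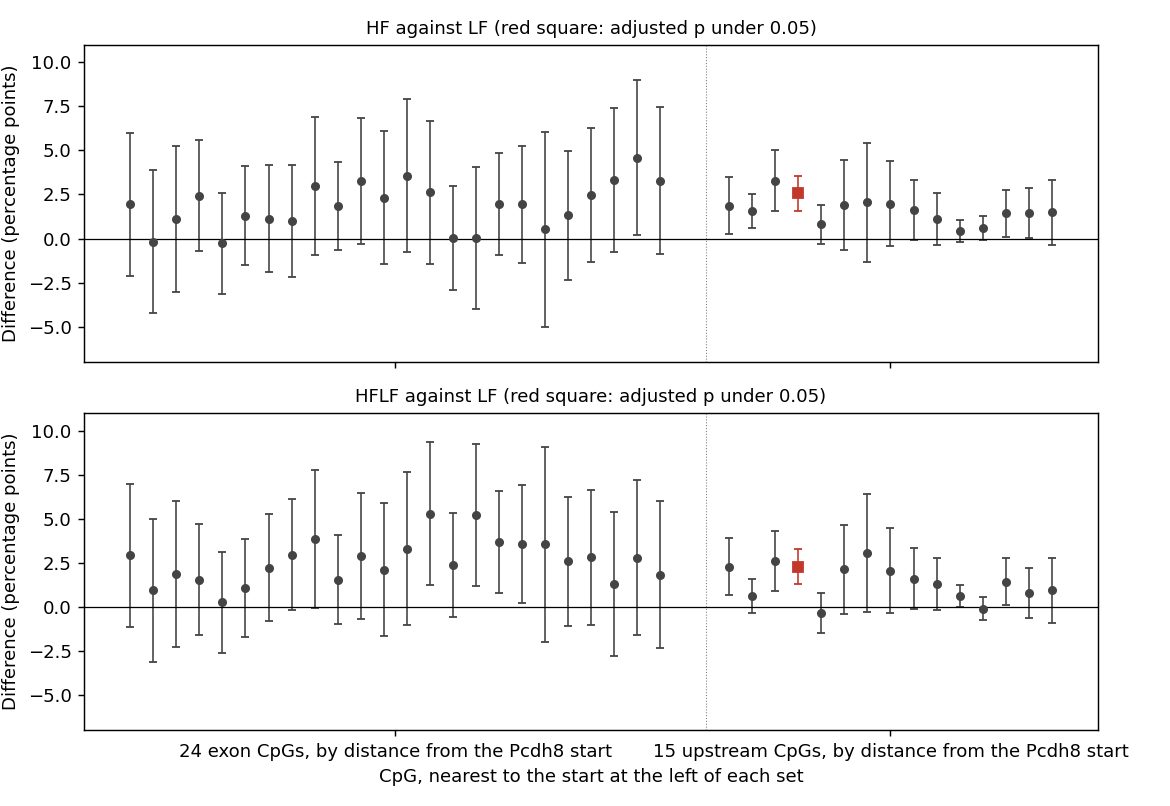
Difference in methylation from LF, in percentage points with its 95% interval from limma, for HF (top) and HFLF (bottom) at the 24 exon CpGs (left of the dotted line) and 15 upstream CpGs (right). Red squares mark the CpG at 79822735, called in both comparisons at 2.56 and 2.28 points, and most other points lie above 0 with intervals that include it.

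In HFLF against HF none of the 39 CpGs was called by limma on any of the 3 scales, as was 0% of the 233, and 3 of 39 had an unadjusted p under 0.05 against 5.15% of all. The smallest p in the exon amplicon were those of 79769447 and 79769454, the latter at 22.3% ± 2.08 in HF and 24.6% ± 1.58 in HFLF. Upstream they were those of 79822683, at 92.1% ± 0.71 in HF and 91.1% ± 0.83 in HFLF, and 79822897, at 91.7% ± 0.71 and 90.6% ± 0.58. The adjusted p was 0.863 for both upstream sites.

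Whole-genome bisulfite sequencing entered as the list of DMRs between HF and LF, which has a position and a direction but no value per mouse. The 1 region within 100 kb of Pcdh8 was chr14:79671904-79671960, listed as hypermethylated in HF. It is 57 bp long, 94.8 kb from the gene, and holds 2 CpGs, shown in capitals on the plus strand (RefSeq GRCm38).
Region near Pcdh8: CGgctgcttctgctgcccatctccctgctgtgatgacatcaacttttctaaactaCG

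The list had 4123 regions of higher and 4076 of lower methylation, and 56.6% of the genes in the count table had at least 1 region within 100 kb, so its presence near Pcdh8 was not particular to that gene. No listed region lay within 100 kb of Pcdh17, and the nearest was 586.7 kb away and listed as hypomethylated. The exon amplicon was 97.4 kb and the upstream amplicon 150.7 kb from the nearest listed region, so neither overlapped one.

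Last, Pcdh17 log2 CPM was set against the methylation of each amplicon by group and number, on the unstated assumption that equal numbers are the same mouse. Pcdh17 lies 4620 kb from the upstream amplicon. Since Pcdh17 was chosen for its difference between diets, the pooled values carry that choice and are given as a description over 15 pairs that share the diet groups, with no p. For the upstream amplicon Pearson r was 0.46, Spearman rho was 0.59 and r without the 2 samples farthest from the median methylation was 0.48. For deviations from the group means r was -0.01. Over 15 pairs joined on that assumption, this value cannot show whether a relation exists within groups. For the exon amplicon r was 0.35, rho was 0.21, r without the 2 farthest samples was -0.14 and r of the deviations was 0.32. Pcdh8, at 0 in every library, could not be set against its own amplicons.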

How the data were processed

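There were 15 samples each of RNA-seq, BSP-seq and WGBS (whole-genome bisulfite sequencing), and groups and numbers came from the labels. The authors mapped stranded mRNA reads to mm10 with TopHat2 2.0.4 and deposited HTSeq counts per gene. BSP-seq values, as deposited, are a methylated fraction for each CpG without read depth, from reads mapped with Bismark (the submitters' processing notes name versions 0.7.8 and 0.14.0), and are given here in percent. Of 253 CpG entries 20 repeated another and were counted once, among them 11 of the 15 upstream CpGs. WGBS was used only as the deposited DMR list, and WGBS of single mice was not analysed here. Deposited DESeq2 tables of HF and HFLF against LF (fold changes, p-values and direction marks) were not used, and 0 other per-sample columns were left out.

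Counts were fitted in R 4.3.3 with edgeR 4.0.16 (filterByExpr, TMM, quasi-likelihood test, group only, prior count 2 for log2 CPM). CpGs in percent and amplicon means were fitted with limma 3.58.1 (eBayes with trend), and amplicon means were compared by exact permutation. CpGs less than 1000 bp apart formed an amplicon. P-values measure only the spread between these samples. Both fits were tested on simulated data.

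The members, lists and tests were chosen with earlier results of these data known. Named genes were both members, the non-clustered protocadherins, called genes and the 2 most abundant genes of the other lists (written for this work), table genes within 500 kb, and the 5 genes most like Pcdh17. Named CpGs had the 2 lowest p per amplicon and comparison. Alternatives were other scalings, filters, groupings, scales and call rules, DESeq2 1.42.0, the replicate block, and leaving out each library.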

Additional observations from a re-analysis of the deposited data

Results flagged for a closer look

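In 45 groups of 5 samples, a sample was set apart when its gap to the nearest other was over 0.71 of the group's range (Dixon's criterion, which chance meets in about 1 group of 20), and 2 were. At 79822735, the called upstream CpG, HFLF replicate 5 was at 84.2%, below the other 4 HFLF samples at 85.4% to 85.8% and above all LF samples. Without that sample the HFLF difference from LF was 2.56 points (limma adjusted p = 0.0146, the lowest of the 22 alternatives, which reached 0.166). At 79822897, also upstream, HF replicate 1 was at 90.5%, below the other 4 HF samples at 91.8% to 92.2%. The cause was not tested for either.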

How the results depend on the processing

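Pcdh17 kept its direction in all 23 alternatives of each comparison and moved by less than the spread within groups. Leaving out single libraries gave log2 fold changes of 0.39 to 0.47 in HF against LF, 0.05 to 0.14 in HFLF against LF and -0.38 to -0.30 in HFLF against HF. Pcdh8, at 0 throughout, has no value to vary. The list count in HFLF against LF, 1 gene as reported, was 2 with no filter, 0 with at least 10 counts in every library, 0 with only the 2 groups compared, 3 with the GC trend removed, 4 with an adjusted p under 0.05 as the only condition, 0 with DESeq2, and 0 to 2 without single libraries. The added genes were Pcdh7 (18 reads in all, none in LF) with no filter, Cdhr2 and Cdhr5 with the GC trend removed, Cdhr2 without LF replicate 2 or 4 or HFLF replicate 2 or 4, Cdhr5 without LF replicate 4 or HFLF replicate 2, and Cdhr2, Cdhr5, Dsc2 and Dsg2 in place of Pcdh20 with the single condition. In the other comparisons it was 1 without any single library, and that gene was Pcdh17, a count fixed by the choice of the gene.

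The count of called CpGs in HF against LF, 1 as reported, was 0 when a difference of at least 5 points was also asked, 0 with only the 2 groups compared, and 0 to 2 without single libraries, with 0 without HF replicate 2 or 3 and 2 without HFLF replicate 5 (79822735 and 79822720). In HFLF against LF, 1 as reported, it was 0 on the arcsine scale, the log2 ratio scale, with at least 5 points, with only the 2 groups compared and with repeats included, and 0 to 1 without single libraries, staying only without LF replicate 4 or HFLF replicate 5. In HFLF against HF it was 0 to 0. The cause of these changes was not tested.

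With the replicate block the CpG count was 2 in HF against LF (79822735 and 79822683) and 0 in HFLF against LF, and the calls in the gene lists stayed the same. Over all tested genes the calls went from 205 to 252 in HF against LF and from 482 to 537 in HFLF against LF. In HFLF against HF they went from 343 to 346. The labels do not say that equal numbers link samples of different groups. Of 15 same-number pairs across groups, 5 in RNA-seq and 4 in BSP-seq had deviations that correlated at over 0.1. Such correlations cannot decide whether the numbers pair the samples.

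Amplicon means kept their side of the threshold throughout. In the permutation test a single amplicon could not have crossed it alone, and limma, which has no such floor, also called neither amplicon. The HFLF difference from HF reversed with the median over CpGs, to -0.40 points in the exon amplicon and 0.056 upstream, and upstream to 0.12 without HFLF replicate 5. Without single samples the exon amplicon gave 0.70 to 2.43 points in HF against LF, 2.00 to 3.12 in HFLF against LF and 0.17 to 1.90 in HFLF against HF, and the upstream amplicon 1.22 to 1.91, 1.03 to 1.73 and -0.47 to 0.12. DMRs near the genes numbered 0 within 50 kb, 2 within 250 kb and 7 within 1 Mb. On the CPM scale both pooled r kept their sign (0.30 exon, 0.48 upstream), and the upstream r of deviations was 0.05. The missing read depth limits the methylation values, and 5 samples a group limit every test.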
